A study of Mus musculus with 3 samples.

Results

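The genes described here handle the lysophospholipids sphingosine 1-phosphate (S1P) and lysophosphatidic acid (LPA). They were 10 of the 31053 genes listed for each library and were chosen by name. They were the S1P receptors *S1pr1* and *S1pr3*, the S1P exporter *Spns2*, the S1P-making kinase *Sphk1*, the S1P lyase *Sgpl1*, the LPA-making enzyme *Enpp2* (autotaxin), the lipid phosphate phosphatases *Plpp1* and *Plpp3*, and the LPA receptors *Lpar4* and *Lpar6*. Their levels were measured by single-cell RNA sequencing of cells sorted from mouse Peyer's patches (PP), the lymphoid organs of the small intestinal wall, in 3 libraries. The control library was labelled WT and came from C57BL/6 mice. The other 2 libraries came from EC-iCOUP_OE mice, strain CDH5(PAC)CreERT2;COUP-TFIIOE/OE, in which tamoxifen switches on a Cre recombinase driven by the endothelial *Cdh5* promoter and with it overexpression of the transcription factor COUP-TFII, encoded by *Nr2f2*. All mice were 6 to 10 weeks old, and cells were taken 14 to 19 days after tamoxifen. The labels give neither the day of each library, nor the number of mice in it, nor which control mice received tamoxifen, and male and female cells were pooled before sequencing. With 1 control library no test across libraries was run, so EC-iCOUP_OE libraries are compared with it by size of difference and counting error only.

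S1P is held high in blood and lymph and low inside tissues. Cells make it with sphingosine kinases, endothelium releases it through SPNS2, and phosphatases and the lyase SGPL1 remove it, while S1PR1 on endothelium keeps junctions tight and S1PR1 on lymphocytes guides their exit from lymphoid organs. LPA is made outside cells by autotaxin, a secreted enzyme known for its high expression in the high endothelial venules through which lymphocytes enter lymphoid organs. Phosphatases of the PLPP family, whose active sites face the outside of the cell, break down LPA and S1P, and LPA acts on receptors of the LPAR family.

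*Plpp3* (ENSMUSG00000028517) lies on chromosome 4 from 105157347 to 105232764 of mm10, on the plus strand. *Lpar4* (ENSMUSG00000049929) lies on chromosome X from 106920625 to 106933900, also on the plus strand. *Enpp2* (ENSMUSG00000022425) lies on chromosome 15 from 54838901 to 54952892, on the minus strand. The 250 bases before the start sites of *Plpp3* and *Lpar4* are shown because these genes differed between the genotypes in capillaries in opposite directions. They are from RefSeq (GRCm38.p6), at chr4:105157097-105157346 and chrX:106920375-106920624, and capitals mark matches on either strand to the COUP-TFII motif that the study searched for, which is GGTCA in one form and GGTCG in the other, or to AAGTG, the core recognised by NKX2 factors.
*Plpp3*: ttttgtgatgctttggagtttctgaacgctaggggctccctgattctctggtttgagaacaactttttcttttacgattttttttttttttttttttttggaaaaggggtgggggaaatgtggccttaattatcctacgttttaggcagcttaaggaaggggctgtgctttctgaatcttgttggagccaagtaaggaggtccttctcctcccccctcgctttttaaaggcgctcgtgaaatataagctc
*Lpar4*: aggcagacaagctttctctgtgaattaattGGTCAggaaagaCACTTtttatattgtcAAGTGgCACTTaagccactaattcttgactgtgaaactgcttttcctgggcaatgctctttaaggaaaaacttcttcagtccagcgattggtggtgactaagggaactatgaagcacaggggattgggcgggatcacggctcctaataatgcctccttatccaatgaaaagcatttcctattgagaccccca
In these letters *Plpp3* held no match to either motif. *Lpar4* held GGTCA at 220 bases before the start site, and 3 matches to AAGTG, at 208, 192 and 186 bases before it. Of 32851 mouse promoter windows of 300 bases, 53.0% held the COUP-TFII motif in one of its forms and 46.4% held AAGTG or its reverse complement. Of the other members with a promoter here, *Spns2* and *Lpar6* held both motifs, and neither was called in CapEC. *Sphk1* held both in some of its windows, *S1pr3* held only the match to AAGTG and *Sgpl1* held none, and these genes were too low in CapEC to judge. A match of this kind is a description of the letters only.

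Cells were grouped by clustering with the 10 genes left out, and clusters were named from marker genes, so that each class is a class of cells like the named type and may differ from the study's own subsets. Libraries held 5341, 4704 and 1239 cells after filtering for the control library and EC-iCOUP_OE replicates 1 and 2. High endothelial cells (HEC, marked by *Glycam1* and *Chst4*) numbered 365, 80 and 1. Venular EC (*Selp*, *Ackr1*) numbered 383, 762 and 90, capillary EC (CapEC; *Rgcc*, *Prom1*) 963, 1013 and 494, and arterial EC (*Gja5*, *Sox17*) 411, 181 and 100. Capillary resident progenitors (CRP; *Apln*, *Trp53i11*) numbered 163, 206 and 95. The marker lists did not part CapEC and CRP cleanly. *Esm1*, of the CRP list, was among the leading genes of capillary clusters, and *Gpihbp1* and *Rgcc*, of the capillary list, were among those of CRP clusters. Some capillary clusters also scored close to other lists. The one led by *Tgtp2* and *Cxcl10*, mostly of EC-iCOUP_OE cells, scored 0.306 for capillary and 0.243 for venular markers. The one led by *Scgb3a1*, *Prom1* and *Cxcl12* scored 0.437 for capillary and 0.374 for arterial markers, with the arterial marker *Hey1* among its leading genes. Blood EC left unnamed numbered 166, 1114 and 194, and in EC-iCOUP_OE replicate 1 they outnumbered each named class. Most were in a cluster led by *Cyp1a1* and *Enpp6* (9, 613 and 159 cells) or one led by *Colec12* and *Ltc4s* (143, 488 and 28 cells). They are in no comparison of genotypes by class, which thus leaves out unequal shares of the libraries. Lymphatic EC numbered 4, 923 and 127 and fibroblasts 2490, 8 and 4, so lymphatic values come from the EC-iCOUP_OE libraries and fibroblast values from the control library. Levels are given as UMIs (unique molecular identifiers, 1 per captured transcript) of a gene relative to all UMIs of the class, on the usual CPM scale, with exact Poisson 95% intervals, which cover counting error only. For a count of 0 the level of 3 UMIs is given instead as an upper limit. *Nr2f2* was at 16.3, 2000.2 and 1194 CPM in CapEC, at 11.1, 1296 and 858 CPM in arterial EC and at 257, 1918 and 1678 CPM in venular EC of the control library and EC-iCOUP_OE replicates 1 and 2. Barcodes were shared only between the control library and EC-iCOUP_OE replicate 2, which had 12 in common.

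A gene was called higher or lower in EC-iCOUP_OE mice when both EC-iCOUP_OE libraries differed at least 2-fold from the control library in the same direction, among genes with at least 50 UMIs in the class in 1 library or more. In CapEC 7 of the 10 genes had enough UMIs, and *Sphk1*, *Sgpl1* and *S1pr3* did not. *Enpp2* and *Plpp3* were lower and *Lpar4* was higher, which is 2 and 1 of 7, against 2.58% of 6345 genes called lower and 3.75% called higher. None of the 3 was called with each library clustered on its own, which left 106 control CapEC, in cells with at least 2000 UMIs, which left 10, or in male cells, which left 36. In male cells *Enpp2* and *Lpar4* had fewer than 50 UMIs in each library and could not be judged. In arterial EC 6 genes could be judged and only *Enpp2* was called, as lower, with a background of 3.31% lower and 1.95% higher. In CRP the calls were those of CapEC, *Enpp2* and *Plpp3* lower and *Lpar4* higher among 7 genes, with a background of 2.16% lower and 4.65% higher. In venular EC 0 of 6 genes were called, with a background of 1.57% lower and 3.1% higher. The comparisons share the control library and are not independent of each other. The median log2 ratio of all genes judged in CapEC was 0.04 in EC-iCOUP_OE replicate 1 and -0.12 in replicate 2.

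**Figure D1:**
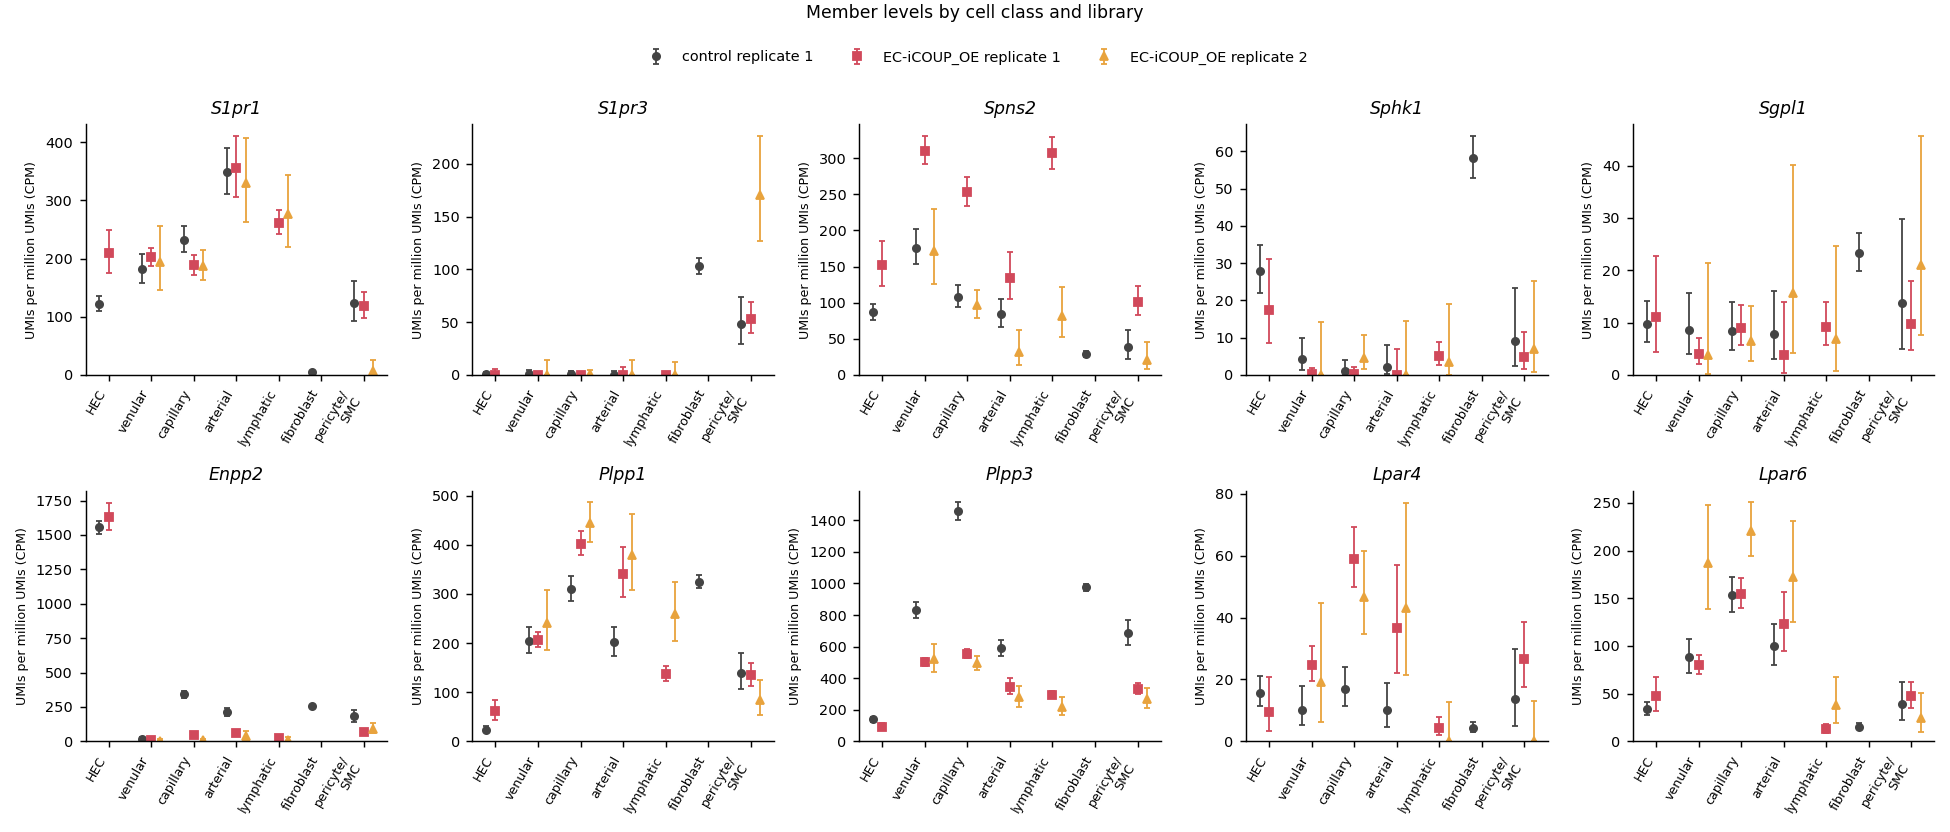
Levels of the 10 genes in CPM (linear axis, 1 panel a gene) by cell class, with 1 point for each library that held at least 10 cells of the class and bars for exact Poisson 95% intervals. *Enpp2* stands highest in HEC at 1556 and 1632 CPM, and *Plpp3* in CapEC drops from 1457 CPM in the control library to 554 and 496 CPM in the EC-iCOUP_OE libraries.

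*S1pr1*, the endothelial S1P receptor that couples to Gi proteins, was found in every blood and lymphatic EC class and was highest in arterial EC. Arterial EC of the control library held 349 CPM (95% interval 311 to 389), against 355 CPM (306 to 410) in EC-iCOUP_OE replicate 1 and 329 CPM (263 to 407) in replicate 2. CapEC held 233, 189 and 188 CPM and venular EC 181, 202 and 195 CPM in the same order. HEC held 122 CPM (109 to 135) in the control library and 210.3 CPM (176 to 249) in EC-iCOUP_OE replicate 1. Lymphatic EC held 262 and 277 CPM in EC-iCOUP_OE replicates 1 and 2. Arterial EC were thus above CapEC in each library, by 1.5-fold, 1.88-fold and 1.75-fold, which is short of the 2-fold rule. The intervals of arterial, capillary, venular and high EC did not overlap in the control library, whereas those of high, venular and capillary EC overlapped in EC-iCOUP_OE replicate 1. Fibroblasts held 5.54 CPM, 42.0-fold less than CapEC of the same library. EC-iCOUP_OE and control libraries differed by less than 1.5-fold in CapEC, arterial, venular and CRP cells, with a log2 ratio of -0.31 ± 0.01 (SD, n = 2) in CapEC and -0.03 ± 0.08 (SD, n = 2) in arterial EC. Pericytes and smooth muscle cells held 124, 119 and 6.98 CPM, and the summed level of the 8 blood endothelial markers in them was 2819, 3210 and 576 CPM. The share of that endothelial RNA in the pericyte values was not tested.

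*S1pr3*, a second S1P receptor, was the opposite of *S1pr1* in where it was found. The EC classes held 0 to 3 UMIs in each library, while control fibroblasts held 103 CPM (96.0 to 111), a 92.0-fold difference from control CapEC, whose value rests on 2 UMIs. Pericytes and smooth muscle cells held 48.1, 53.0 and 171 CPM in the control library and EC-iCOUP_OE replicates 1 and 2, and control glia held 55.9 CPM. Replicate 2 was the library in which the pericyte class carried the least endothelial marker RNA. With cells thinned to 1000 UMIs each, 8.19% (7.15 to 9.34%, Clopper-Pearson) of control fibroblasts had an *S1pr3* UMI, and 0 of 963 control CapEC did. A count of 0 allows a share of up to 0.312% at this depth, taken as 3 cells, and without thinning the 2 UMIs given above were seen in them.

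*Spns2*, the exporter through which endothelium releases S1P, was highest in venular EC of each library, at 176 CPM (153 to 202) in the control library, 311 CPM (291 to 331) in EC-iCOUP_OE replicate 1 and 172 CPM (125 to 230) in replicate 2. CapEC held 108, 253 and 97.1 CPM, arterial EC 84.4, 134 and 31.3 CPM, and lymphatic EC 307 and 82.0 CPM in the EC-iCOUP_OE libraries. EC-iCOUP_OE replicate 1 was the highest library in every EC class, and replicate 2 lay at or below the control library in CapEC, arterial and venular EC. In CapEC the log2 ratio to control was 1.23 for replicate 1 and -0.16 for replicate 2, so the replicates differed more from each other than replicate 2 did from the control library. Of 12 clusters of blood endothelium with at least 10 cells in both the control library and replicate 1, 11 were higher in replicate 1, and of 9 such clusters for replicate 2, 6 were lower. In lymphatic EC replicate 1 was level with its venular EC, at a log2 ratio of -0.02 (-0.16 to 0.12), while replicate 2 was lower, at -1.07 (-1.85 to -0.32). Replicate 1 was the library whose file header names Cell Ranger 3.1.0, against 3.0.2 for the others, and the part of this in the *Spns2* difference was not tested.

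*Sphk1*, which phosphorylates sphingosine to S1P, was near 0 in most EC and was found in HEC and fibroblasts. HEC held 27.9 CPM (22.1 to 34.9) in the control library and 17.4 CPM (8.68 to 31.1) in EC-iCOUP_OE replicate 1. CapEC held 1.12, 0.388 and 4.58 CPM, which is 2, 1 and 5 UMIs, and venular EC 4.28, 0.315 and 0 CPM, with an upper limit of 11.5 CPM at 3 UMIs. Control fibroblasts held 58.2 CPM (52.8 to 64.0), 51.9-fold more than control CapEC. HEC exceeded venular EC 6.54-fold in the control library, with a log2 interval of 1.42 to 4.37, and by a log2 ratio of 5.79 (3.0 to 11.21) in replicate 1, where venular EC held 1 UMI. *Sgpl1*, the lyase that destroys S1P, was low in every class. It lay between 3.82 and 15.7 CPM in the EC classes, at 23.3 CPM (19.9 to 27.1) in fibroblasts and at 23.0 CPM (9.25 to 47.4) in glia, and fibroblasts were 2.77-fold above control CapEC. No difference in *Sgpl1* between genotypes was detectable at 7 to 23 UMIs per library in CapEC.

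*Enpp2*, which encodes autotaxin, had the largest difference between HEC and venular EC of the 8 genes judged there. HEC held 1556 CPM (1510 to 1603) in the control library and 1632 CPM (1534 to 1734) in EC-iCOUP_OE replicate 1. Venular EC held 18.8, 5.98 and 0 CPM in the control library and EC-iCOUP_OE replicates 1 and 2, with an upper limit of 11.5 CPM at 3 UMIs in replicate 2. HEC therefore exceeded venular EC 82.7-fold in the control library and 273-fold in replicate 1. In HEC the ratio of EC-iCOUP_OE replicate 1 to the control library was close to 1, and replicate 2 held 1 HEC, so no call could be made there. With cells thinned to 1000 UMIs, 77.3% (72.6 to 81.5%) of control HEC and 67.5% (56.1 to 77.6%) of HEC in replicate 1 had an *Enpp2* UMI. Fibroblasts held 254 CPM (243 to 266), and lymphatic EC 24.3 and 10.2 CPM.

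CapEC held 341 CPM (315 to 369) of *Enpp2* in the control library, 46.6 CPM (38.6 to 55.7) in EC-iCOUP_OE replicate 1 and 9.16 CPM (4.39 to 16.8) in replicate 2. Both EC-iCOUP_OE libraries were lower, 7.33-fold and 37.2-fold, a log2 ratio of -4.05 ± 1.66 (SD, n = 2), and their intervals did not overlap that of the control library. Arterial EC held 213 CPM (184 to 245), 57.6 CPM (38.8 to 82.2) and 39.2 CPM (18.8 to 72.1), again lower in both EC-iCOUP_OE libraries, with a log2 ratio of -2.17 ± 0.39 (SD, n = 2). CRP held 229, 16.7 and 75.5 CPM, a log2 ratio of -2.69 ± 1.54 (SD, n = 2). The share of thinned CapEC with an *Enpp2* UMI was 11.3% (9.39 to 13.5%) in the control library, 3.16% (2.17 to 4.43%) in replicate 1 and 1.01% (0.329 to 2.35%) in replicate 2. The unthinned shares were 14.6%, 5.43% and 2.02%. As a measure of free RNA, 3.43% (1.39 to 6.94%) of control glia had a UMI, at a median depth of 1384 UMIs against 1481 in control CapEC. Glia of the EC-iCOUP_OE libraries were too few for such a measure there.

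Most of the capillary *Enpp2* was in few cells. The 5% of control CapEC with the most *Enpp2* held 69.7% of its UMIs, against 18.2% for *Plpp3*. One capillary cluster, with *Aqp1*, *Gpihbp1*, *Car2* and *Kit* among its leading genes, held 533 of the 608 control UMIs and was at 1620 CPM (1485 to 1763) in the control library and 648 CPM (518 to 802) in EC-iCOUP_OE replicate 1. This cluster made up 11.3%, 3.36% and 0.405% of CapEC in the control library and EC-iCOUP_OE replicates 1 and 2, and replicate 2 held only 2 of its cells. Without it, an alternative chosen after its values were seen, CapEC held 51.6, 14.3 and 8.27 CPM, and *Enpp2* was still called lower. In the capillary cluster best shared by the libraries, led by *Scgb3a1*, *Prom1* and *Cxcl12* (388, 142 and 144 cells), it was at 82.2, 37.0 and 18.5 CPM and was also called lower. In another capillary cluster led by *Scgb3a1* and haemoglobin genes it was not lower, at 12.4 and 41.2 CPM on 8 and 3 UMIs in the control library and replicate 1 and with 1 UMI in replicate 2. That cluster held 446 of the 963 control CapEC, and its control level was not above that of control glia, 23.0 CPM on 7 UMIs. An unnamed cluster led by *Colec12* and *Ltc4s*, between venular and high EC by its markers, held 1082 CPM (1012 to 1156) in the control library, 679 CPM (649 to 711) in replicate 1 and 391 CPM (278 to 534) in replicate 2. Arterial EC were also split. The cluster led by *Bmp2* and *Pi16* held 496, 70.6 and 44.0 CPM and 146 of the 192 control arterial UMIs. No arterial marker was among its leading genes. The cluster led by *Kcne3* and *Gkn3* held 75.8, 46.4 and 31.2 CPM on 46, 13 and 3 UMIs, too few for a call. Replicate 1 was less than 2-fold below the control library there. The arterial call thus rests largely on 1 cluster, that led by *Bmp2* and *Pi16*. In CapEC most control UMIs were also in 1 cluster, that led by *Aqp1*. The call was kept without it, on 75 control UMIs, of which 63 were in the best shared cluster.

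**Figure D2:**
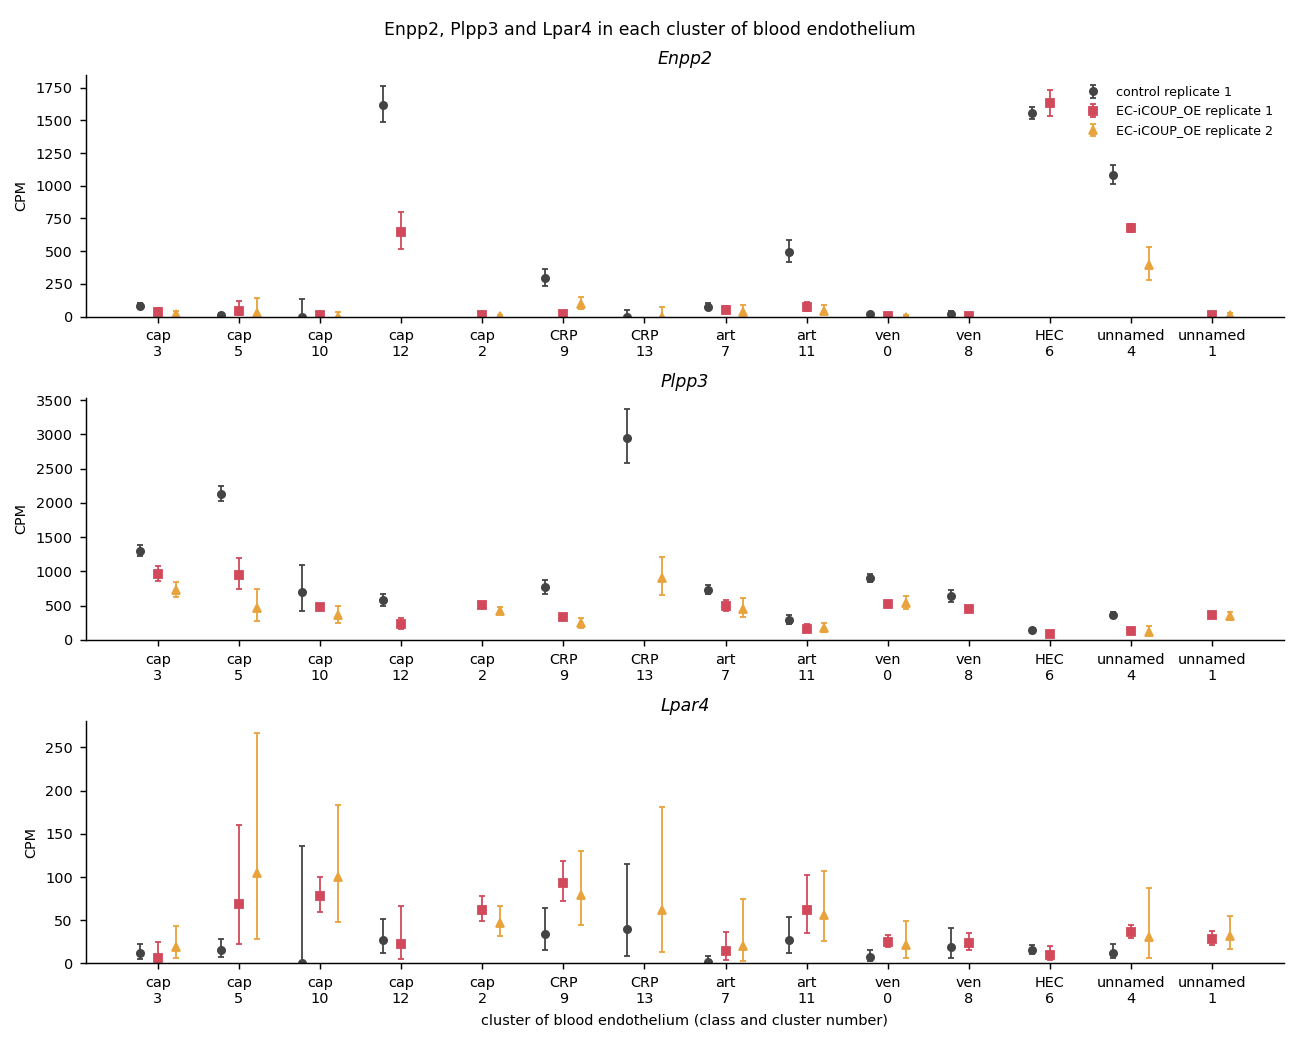
Levels of *Enpp2*, *Plpp3* and *Lpar4* in CPM in the clusters of blood endothelium, 1 point for each library with at least 10 cells in the cluster, with Poisson 95% intervals. *Enpp2* is concentrated in the high endothelial cluster, the capillary cluster led by *Aqp1* (1620 and 648 CPM) and the unnamed cluster led by *Colec12*, whereas *Plpp3* is lower in the EC-iCOUP_OE libraries in each cluster shown for both genotypes.

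Markers of other cell types also moved with these genes in CapEC. The 6 high endothelial markers summed to 1020.5 CPM in control CapEC and to 114 and 187 CPM in EC-iCOUP_OE replicates 1 and 2, with 1, 1 and 3 of them at 0. The 8 fibroblast markers summed to 117, 0.776 and 7.33 CPM, with 0, 7 and 5 of them at 0, against 34880.5 CPM in control fibroblasts. The 9 arterial markers summed to 1629, 590 and 785 CPM, with 0, 1 and 1 of them at 0, and so were lower beside *Enpp2* and *Plpp3*. The 7 venular markers summed to 460.0, 2399 and 3216 CPM with none at 0, and so were higher beside *Lpar4*. The part of these marker changes in the differences in *Enpp2*, *Plpp3* and *Lpar4* was not tested. *Glycam1*, the most abundant HEC transcript, was at 83051 CPM in control HEC and at 606 CPM in control CapEC. For each 1000 *Glycam1* UMIs there were 18.7 *Enpp2* UMIs in control HEC, 129 in venular EC, 119 in glia, 562 in CapEC, 632 in the *Aqp1*-led capillary cluster and 1699 in arterial EC. The ratio over all CapEC and over all arterial EC was thus above that of HEC, venular EC and glia of the same library. It was not so in each capillary cluster. The best shared cluster was at 516, but the *Scgb3a1* and haemoglobin cluster was at 71.4, on 8 *Enpp2* UMIs. The cluster led by haemoglobin genes held 0 *Enpp2* and 3 *Glycam1* UMIs.

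*Plpp3*, a phosphatase that removes extracellular LPA and S1P, was highest in control CapEC. It was at 1457 CPM (1402 to 1515) there, and at 554 CPM (526 to 584) and 496 CPM (455 to 539) in CapEC of EC-iCOUP_OE replicates 1 and 2. The EC-iCOUP_OE libraries were lower 2.63-fold and 2.94-fold, a log2 ratio of -1.48 ± 0.11 (SD, n = 2), a difference far larger than that between the replicates. CRP held 1254, 363 and 377 CPM, a log2 ratio of -1.76 ± 0.04 (SD, n = 2). Arterial EC held 589 CPM (540 to 642), 345 CPM (297 to 400) and 278 CPM (217 to 351), which is 1.71-fold and 2.12-fold lower, and venular EC held 829, 504 and 524 CPM, which is 1.65-fold and 1.58-fold lower. Neither class met the 2-fold rule in both libraries. HEC held 139 CPM in the control library and 91.7 CPM in replicate 1, 5.98-fold and 5.50-fold less than venular EC of the same library. In the clusters of blood endothelium *Plpp3* was lower in EC-iCOUP_OE in 13 of 13, by at least 2-fold in 5 of 12 for replicate 1 and in 4 of 9 for replicate 2. The clusters are parts of the same 3 libraries and not replicates of the genotype, and this count was not made over all genes.

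Within the best shared capillary cluster *Plpp3* was at 1297 CPM (1218 to 1380), 962 CPM (854 to 1080) and 732 CPM (633 to 841). The log2 ratios were -0.43 and -0.83 there, and *Plpp3* was not called. Control CapEC were mostly in that cluster (388 cells), the *Scgb3a1* and haemoglobin cluster (446 cells) and the *Aqp1* cluster (109 cells), while EC-iCOUP_OE CapEC were mostly in a cluster led by *Tgtp2* and *Cxcl10* (8, 473 and 280 cells) and one led by haemoglobin genes (12, 322 and 45 cells). The share of thinned CapEC with a *Plpp3* UMI was 68.6% (65.6 to 71.6%) in the control library, 39.4% (36.4 to 42.5%) in replicate 1 and 38.1% (33.8 to 42.5%) in replicate 2, against 16.2% of control glia. Outside endothelium, fibroblasts held 976 CPM (953 to 999), and pericytes and smooth muscle cells held 686, 331 and 269 CPM, lower in both EC-iCOUP_OE libraries. *Nr2f2* in that pericyte class was at 265, 1236 and 635 CPM beside the endothelial markers given above.

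*Plpp1*, the other lipid phosphate phosphatase, did not follow *Plpp3* in CapEC or arterial EC. CapEC held 310.2 CPM (285 to 337) in the control library, 403 CPM (379 to 428) in EC-iCOUP_OE replicate 1 and 445 CPM (407 to 487) in replicate 2, which gives a log2 ratio of 0.45 ± 0.10 (SD, n = 2). Arterial EC held 202, 342 and 380.0 CPM, a log2 ratio of 0.83 ± 0.11 (SD, n = 2), and venular EC 205, 207 and 241 CPM. CRP held 366, 192 and 411 CPM, where replicate 1 was lower, as for *Plpp3*, by a log2 ratio of -0.93 (-1.29 to -0.57), and replicate 2 was not, at 0.17 (-0.23 to 0.56). Both EC-iCOUP_OE libraries lay above the control interval in CapEC and arterial EC, at less than 2-fold. HEC were the lowest EC class, at 24.0 CPM (18.6 to 30.5) in the control library and 61.7 CPM (43.9 to 84.3) in replicate 1, 8.55-fold and 3.36-fold below venular EC. Fibroblasts held 325 CPM (312 to 339), which overlapped the interval of control CapEC.

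*Lpar4*, an LPA receptor that couples to G12/13 and Gs proteins, was at 16.8 CPM (11.4 to 24.0) in control CapEC, 59.0 CPM in EC-iCOUP_OE replicate 1 and 46.7 CPM (34.8 to 61.4) in replicate 2. Both EC-iCOUP_OE libraries were higher, 3.50-fold and 2.78-fold, a log2 ratio of 1.64 ± 0.24 (SD, n = 2), on 30, 152 and 51 UMIs. CRP held 35.2, 90.5 and 75.5 CPM on 12, 65 and 18 UMIs, a log2 ratio of 1.23 ± 0.18 (SD, n = 2). The counting intervals of the 2 ratios there were 0.46 to 2.39 and -0.03 to 2.29, and the second includes 0. Venular EC held 10.3, 24.6 and 19.1 CPM, 2.39-fold and 1.86-fold higher, and arterial EC held 9.99, 36.5 and 43.1 CPM with fewer than 50 UMIs in each library. HEC held 15.8 and 9.49 CPM, lymphatic EC 4.19 and 0 CPM, with an upper limit of 10.2 CPM at 3 UMIs, and fibroblasts 4.30 CPM. Of 13 clusters of blood endothelium, again parts of the same 3 libraries, 10 were higher and 2 were lower in every EC-iCOUP_OE library they held. In the best shared capillary cluster the values were 11.7, 6.73 and 18.5 CPM on 9, 2 and 5 UMIs, with log2 ratios of -0.80 (-4.05 to 1.47) and 0.65 (-1.27 to 2.39), so the 2 libraries went opposite ways there and a difference was not detectable. In the *Scgb3a1* and haemoglobin cluster they were 15.5, 68.7 and 104 CPM on 10, 5 and 4 UMIs. The share of thinned CapEC with an *Lpar4* UMI was 1.97% (1.19 to 3.06%), 5.53% (4.20 to 7.12%) and 4.86% (3.14 to 7.14%), and the control share lay within the interval of control glia, 0.490% (0.0124 to 2.70%).

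*Lpar6*, the other LPA receptor and one that couples to G13, was highest in CapEC and CRP. CapEC held 153 CPM (136 to 172), 155 CPM (140.0 to 171) and 221 CPM (194 to 251) in the control library and EC-iCOUP_OE replicates 1 and 2. Arterial EC held 99.9, 123 and 172 CPM and venular EC 88.1, 80.3 and 187 CPM. Replicate 2 was the highest library in CapEC, CRP, arterial and venular EC, and the log2 ratio in CapEC was 0.27 ± 0.36 (SD, n = 2), so the replicates were further apart than replicate 1 was from the control library. HEC held 33.7 CPM in the control library and 47.4 CPM in replicate 1. Lymphatic EC held 12.6 CPM (8.48 to 17.9) and 37.6 CPM (18.8 to 67.2), 6.39-fold and 4.99-fold less than venular EC of the same library, and fibroblasts held 15.5 CPM, 9.87-fold less than control CapEC.

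**Figure D3:**
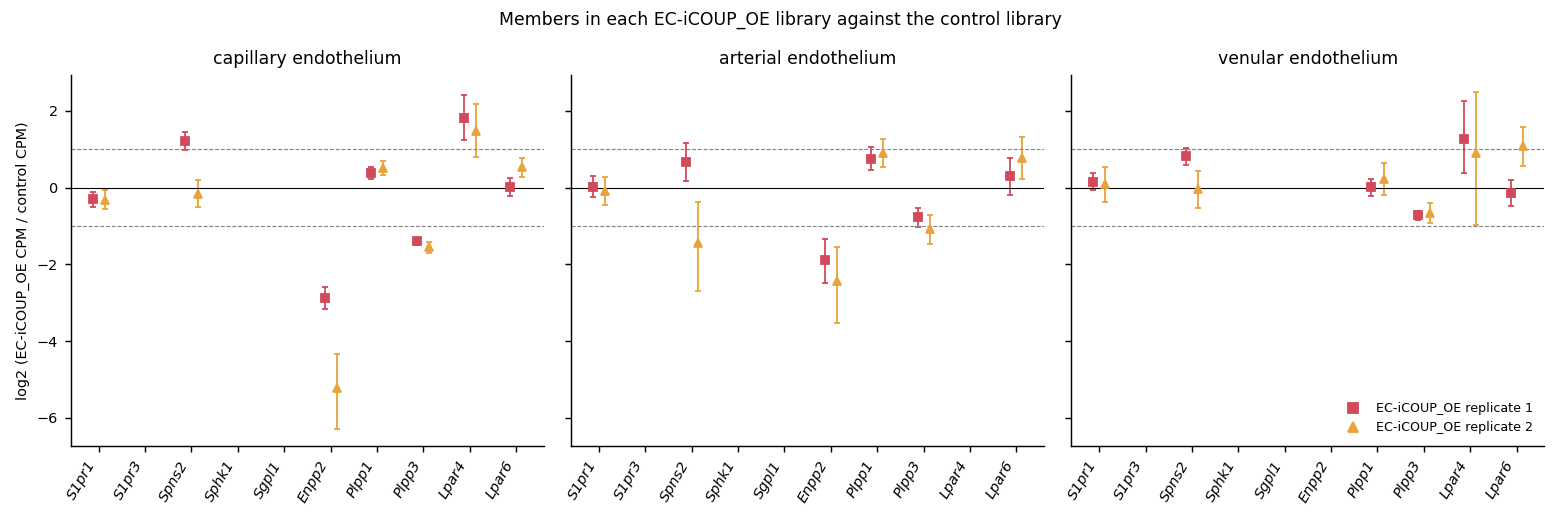
Log2 ratio of each EC-iCOUP_OE library to the control library in CapEC, arterial EC and venular EC, with exact 95% counting intervals and dashed lines at -1 and 1, the 2-fold rule. In CapEC both points of *Enpp2* and *Plpp3* lie below -1 and both points of *Lpar4* above 1, while the points of *Spns2* lie on different sides of 0.

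Between cell classes, a gene was called when each library holding both classes showed at least a 2-fold difference in the same direction. The classes were made from these cells, though not from the 10 genes, so these are descriptions, and the genes that made the clusters are in the backgrounds. HEC against venular EC gave 2 higher genes (*Sphk1* and *Enpp2*) and 3 lower ones (*Spns2*, *Plpp1* and *Plpp3*) of 8 judged, with a background of 3.11% higher and 9.46% lower. Arterial EC against CapEC gave 0 of 7, with a background of 1.63% higher and 1.56% lower. Venular EC against CapEC also gave 0 of 7, with 2.65% higher and 2.21% lower. *Plpp3* was 1.76-fold higher in CapEC than in venular EC of the control library, and within 1.1-fold of it in both EC-iCOUP_OE libraries. Lymphatic against venular EC gave 1 gene, *Lpar6*, as lower of 7 judged, with 8.77% higher and 6.85% lower. Control fibroblasts against CapEC gave 3 higher (*S1pr3*, *Sphk1* and *Sgpl1*) and 3 lower genes (*S1pr1*, *Spns2* and *Lpar6*) of 9 judged, with 19.6% higher and 13.5% lower on this single library.

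Fibroblasts of the control library fell into 5 clusters, which differed in these genes. The cluster led by *Ccl19*, a chemokine of the reticular cells of lymphoid tissue, was the highest in *Enpp2* at 810 CPM (760 to 862), in *S1pr3* at 238 CPM (211 to 267) and in *Sphk1* at 106 CPM (88.4 to 126), and the lowest in *Plpp3* at 136 CPM (116 to 159). The cluster led by *Adamdec1* held 57.5 CPM of *Enpp2* and 1581 CPM (1534 to 1629) of *Plpp3*. The cluster led by *Ogn* was the highest in *Plpp1*, at 549 CPM (522 to 578), and held 248 CPM of *Enpp2* and 818 CPM of *Plpp3*. The cluster led by *Pi16* held 0 UMIs of *S1pr3*, 86.5 CPM of *Enpp2* and 881 CPM of *Plpp3*. The cluster led by *Bmp7* was low in each of the 5 genes plotted, with 4.19 CPM of *Enpp2* (1 UMI) and 189 CPM of *Plpp3*.

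**Figure D4:**
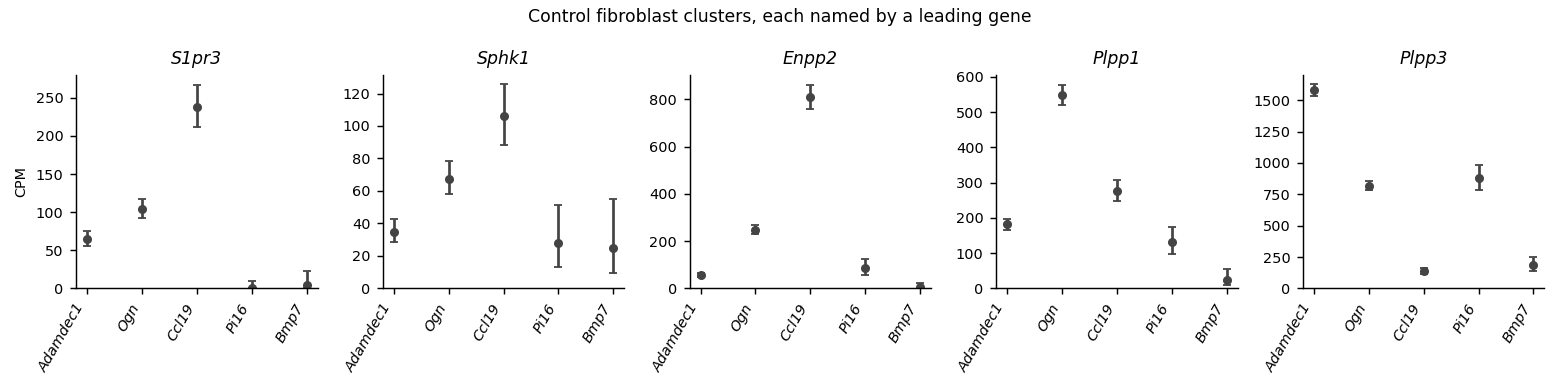
Levels of *S1pr3*, *Sphk1*, *Enpp2*, *Plpp1* and *Plpp3* in CPM in the 5 fibroblast clusters of the control library, each labelled by a leading gene, with Poisson 95% intervals. *Enpp2* is highest in the *Ccl19* cluster, where *Plpp3* is lowest, and the *Bmp7* cluster is low in both genes.

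Cells of EC-iCOUP_OE libraries differed in how much *Nr2f2* they held, so CapEC were also split by *Nr2f2* UMIs after thinning to 1000 UMIs. In replicate 1, the 241 cells with 0 *Nr2f2* UMIs held 83.0 CPM (50.7 to 128) of *Enpp2* and the 772 cells with 1 or more held 25.9 CPM (15.8 to 40.0). The *Aqp1* cluster held 13 of the 20 UMIs of the former in 18 cells, and within it the values were 722 CPM (385 to 1235) and 562 CPM (257 to 1068), with intervals that overlapped. In the best shared capillary cluster they were 37.5 and 48.4 CPM, on 3 UMIs each. The cluster led by *Tgtp2* and *Cxcl10* held 1 UMI in 49 cells and 6 in 424, in the same order. The cluster led by haemoglobin genes held 2 UMIs in 74 cells and 0 in 248. The *Scgb3a1* and haemoglobin cluster held 1 in 20 and 2 in 22, the opposite direction, as in the best shared cluster. These counts were too low to show whether the gap over all CapEC was present within clusters. Over all CapEC, replicate 2 held 5.15 CPM on 1 UMI in 194 cells and 13.3 CPM on 4 UMIs in 300 cells. The direction there was the opposite of that in replicate 1, within wide counting error. *Lpar4* was at 37.3 and 67.4 CPM in replicate 1 and at 25.8 and 66.7 CPM in replicate 2, higher in the cells with *Nr2f2* UMIs in both libraries, with intervals that overlapped in each. Within clusters its direction was mixed. It was the opposite in the cluster led by haemoglobin genes of replicate 1, at 94.6 and 72.6 CPM. So it was in the best shared cluster of replicate 2, with 3 UMIs in 94 cells and 0 in 50. The cluster led by *Tgtp2* and *Cxcl10* went the same way in both libraries, with 2 and 27 UMIs in replicate 1 and 0 and 13 in replicate 2. The remaining comparisons also did, on 6 UMIs or fewer. *Plpp3* was at 627 and 549 CPM in replicate 1 and at 629 CPM (522 to 751) and 407 CPM (338 to 486) in replicate 2. The 2 sets of cells were spread differently over the clusters. In replicate 2 the cluster led by *Tgtp2* and *Cxcl10* held 580 CPM (414 to 789) without and 370 CPM (292 to 461) with *Nr2f2* UMIs. In replicate 1 it held 551 and 507 CPM, and the intervals overlapped in both libraries. The cluster led by haemoglobin genes held 500 and 258 CPM in replicate 2 and, the other way, 365 and 528 CPM in replicate 1. In the best shared cluster, cells with 0 *Nr2f2* UMIs held 862 CPM (671 to 1092) in replicate 1 and 702 CPM (543 to 893) in replicate 2. Cells with 1 or more held 919 CPM (696 to 1191) and 680 CPM (471 to 950). In the *Scgb3a1* and haemoglobin cluster of replicate 1, 20 cells with 0 *Nr2f2* UMIs held 1150 CPM (729 to 1726) and 22 with 1 or more held 818 CPM (485 to 1293). The control library was at 1297 CPM in the best shared cluster and at 2134 CPM in the *Scgb3a1* and haemoglobin cluster. Those control levels are over all UMIs, whereas the split values are from thinned cells, so they are not the same measure. A cell with 0 UMIs at this depth can still express *Nr2f2*.

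Male and female cells could be told apart by sex-linked transcripts in part. Over all classes, 1010, 1734 and 420 cells of the control library and EC-iCOUP_OE replicates 1 and 2 were of undetermined sex and were left out here. Among female CapEC (605, 365 and 239 cells) *Enpp2* was at 358, 38.4 and 7.32 CPM, *Plpp3* at 1453, 477 and 498 CPM and *Lpar4*, an X-linked gene, at 17.9, 64.7 and 36.6 CPM. Among male CapEC (36, 204 and 74 cells) *Enpp2* was at 631, 76.5 and 12.2 CPM, *Plpp3* at 1081, 544 and 471 CPM and *Lpar4* at 12.9, 57.4 and 42.8 CPM. The differences had the same direction in both sexes, and the male control values rest on 49, 84 and 1 UMIs.

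Of 27 other genes of the same pathways, 11 had enough UMIs in CapEC. Of these 1 was called higher and 0 lower, with a background of 3.75% higher and 2.58% lower. The gene called was *Acer3*, an alkaline ceramidase that yields sphingosine, at 15.7, 34.5 and 37.6 CPM, with log2 ratios of 1.14 (0.51 to 1.80) and 1.26 (0.53 to 2.01). It was highest in venular EC, at 122, 126 and 138 CPM, with no such difference between genotypes. The venular markers were also higher in EC-iCOUP_OE CapEC, as given above, and their part in the *Acer3* difference was not tested. The median log2 ratio of the 11 genes was 0.51 in EC-iCOUP_OE replicate 1 and 0.18 in replicate 2, against 0.04 and -0.12 over all genes judged. Among receptors, *S1pr2* and *Lpar1* were highest in fibroblasts, at 37.7 and 634 CPM, and *Lpar1* was also at 556 CPM in glia. *S1pr4* was highest in arterial EC, at 69.9, 57.6 and 86.2 CPM. Among enzymes of ceramide turnover, the neutral ceramidase *Asah2* was highest in HEC at 38.7 and 23.7 CPM. In EC-iCOUP_OE replicates 1 and 2 the Golgi ceramidase *Acer2* was at 167 and 157 CPM in lymphatic EC. There it was at 112 and 168 CPM in venular EC and at 146 and 86.2 CPM in arterial EC. In the control library *Acer2* was at 160 CPM in arterial EC and 75.2 CPM in venular EC. The phosphatase *Plpp2* was highest in venular EC, at 43.6, 55.1 and 38.2 CPM. The G protein gene *Gna12* was at 29.2, 88.1 and 46.7 CPM and *Gnai2* at 1257, 1249 and 619 CPM in CapEC, and the 2 EC-iCOUP_OE libraries differed about as widely in venular EC, where *Gna12* was at 26.5, 67.7 and 34.4 CPM and *Gnai2* at 1099, 1117 and 508 CPM. These are differences between libraries of 1 genotype, of the kind seen for *Spns2*.

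Likeness between genes was measured as Pearson's r of log2(CPM + 10) over 21 combinations of cell class and library, which share cells, library and depth within a library, against 3382 genes with enough UMIs, and is a description. *S1pr1* was most like *Sox18* (r = 0.97), *Cracr2b* (r = 0.97) and *Mmrn2* (r = 0.97). *Lpar6* was most like *Lrrc8c* (r = 0.87), *Rapgef4* (r = 0.87) and *Zfp366* (r = 0.86). *Plpp1* was most like *Thbd* (r = 0.87), *Ppic* (r = 0.83) and *Nsmce1* (r = 0.81). *Spns2* was most like *Tnfsf10* (r = 0.91), *Myh9* (r = 0.90) and the ribosomal protein gene *Rps21* (r = 0.88). *Plpp3* had no gene above an r of 0.77, reached with *Dlc1*, and was next most like *Ctbp2* (r = 0.76) and *Gle1* (r = 0.75). Between members the highest value was 0.67, for *S1pr1* and *Spns2*, and that for *Plpp1* and *Plpp3* was 0.62. *S1pr3*, *Sphk1*, *Sgpl1*, *Enpp2* and *Lpar4* had fewer than 50 UMIs in every class of 1 library and were not searched.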

How the data were processed

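Cells sorted from Peyer's patches were profiled in 3 droplet libraries, of which 1 was control and 2 were EC-iCOUP_OE. The authors aligned reads to mm10 with Cell Ranger and deposited raw UMI counts per gene and barcode. The submitters' notes give version 3.0.2, and the header of EC-iCOUP_OE replicate 1 gives 3.1.0. The 3 libraries held 6080, 4959 and 1441 barcodes and 17341398, 17417260 and 3548983 UMIs. Filters were a minimum of 500 genes and 1000 UMIs per barcode and a maximum of 10% mitochondrial UMIs, and doublets called by Scrublet in scanpy 1.11.5 (132, 46 and 4) were left out. Libraries were integrated and clustered in 2 rounds in Seurat 5.3.0 (2000 variable genes without the 10 genes described, 30 components, 20 neighbours, resolution 1), first over all cells and then over blood endothelium. Clusters were named by their highest-scoring marker list and left unnamed where no list led clearly, and this naming rule was settled after the clusters were seen. UMIs were summed per class and library and scaled to CPM. Because 1 group holds a single library, no test was run and no p-value is given. Intervals are exact Poisson, conditional binomial for ratios and Clopper-Pearson for shares, and a count of 0 was set to 3 UMIs in ratios. The size rule was tested on simulated data, with no result given here, and such data cannot supply the spread between control libraries. TMM factors came from edgeR 4.0.16. The genes named are the 10 members, the pathway genes called in CapEC or with 50 UMIs in a class, *Nr2f2*, and for each member with enough UMIs the 3 genes most like it. Genes that lead clusters are named only to identify them. Members and lists were chosen with earlier results of these data known. Gene positions are from GENCODE vM21, and RefSeq promoters matched 7 of the 10 members. Alternatives were clustering resolution, clustering each library alone, doublets, depth and UMI minimums, scaling, added CPM, sex, each EC-iCOUP_OE library left out and the shared cluster. The labels do not tie libraries to animals, so the spread between replicates may be technical.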

Additional observations from a re-analysis of the deposited data

Results flagged for a closer look

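*S1pr1* was not called in either class, but its ratios had opposite signs in CapEC and venular EC. Its mean log2 ratio of EC-iCOUP_OE to control was -0.306 in CapEC, where both EC-iCOUP_OE libraries lay below the control library, and 0.132 in venular EC, where both lay above it. The intervals in venular EC, -0.07 to 0.39 and -0.37 to 0.55, include 0, so no change is shown there. Each shift was under 1.3-fold, the same control library enters both, and the difference between the classes was not tested. The value in CapEC ranged from -1.37 with each library clustered on its own to 0.14 in cells with at least 2000 UMIs.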

How the results depend on the processing

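Of 273 values of the 19 single-gene log2 ratios under the alternatives, 208 moved by less than 1 SD between replicates and 65 by more, and 18 values, in 12 ratios, turned their sign. Part of the 208 was fixed in advance. Leaving out 1 of 2 EC-iCOUP_OE libraries moves their mean by less than 1 SD whatever the data. The UMI minimum for judging a gene changes no ratio, and leaving out the *Aqp1* capillary cluster changes none in arterial or venular EC. The 208 thus overstate how stable the ratios are. Of the ratios called, 1 turned its sign. That was *Lpar4* in CapEC, at 1.64 over all capillary clusters and -0.075 in the shared cluster only, on 16 UMIs. The count of members called in CapEC was 3. It was 0 in cells with at least 2000 UMIs, which leaves 10 control CapEC. It was also 0 in male cells, which leave 36 control CapEC and too few UMIs of *Enpp2* and *Lpar4* to judge. It was 1 (*Enpp2*) in the shared cluster only, and 3 to 4 with 1 EC-iCOUP_OE library left out. With each library clustered on its own it was 2, but these were *S1pr1* and *Plpp1*, and *Enpp2*, *Plpp3* and *Lpar4* were not called, with 106 control cells left in the class. *Enpp2* and *Plpp3* in CapEC kept their direction under all 15 alternatives, from -5.22 to -1.65 and from -1.77 to -0.63. The count of other pathway genes called in CapEC was 1. It was 0 at resolution 1.6, in female cells, in male cells, with 10 CPM added and in the shared cluster only, 3 with each library clustered on its own, 5 in cells with at least 2000 UMIs, and 2 with genes of at least 10 UMIs or, chosen after the data were seen, without the *Aqp1* capillary cluster, and it was 1 to 2 with 1 EC-iCOUP_OE library left out. Over all genes in CapEC the count called was 402, and it was 249 at resolution 1.6, 808 with each library clustered on its own, 1492 in cells with at least 2000 UMIs, 191 in male cells, 979 with genes of at least 10 UMIs, 103 in the shared cluster only and 626 to 859 with 1 EC-iCOUP_OE library left out. The count of members called in arterial and venular EC was 1. It was 2 at resolutions 0.6 and 1.6, 3 with each library clustered on its own, in cells with at least 2000 UMIs and with genes of at least 10 UMIs, 0 in male cells, and 2 without replicate 2 or 4 without replicate 1. The count of differences between classes was 12 and ranged from 7 to 15 with 1 library left out. The share of control CapEC with an *Enpp2* UMI was 11.3% when thinned and 14.6% when not. The cause of these shifts was not tested where fewer cells or genes do not give it. No paired analysis was possible because the control group holds 1 library, which shares fewer than 2 replicate numbers with the other group. With 1 control library, mouse, strain, day and genotype cannot be told apart. Female and male cells numbered 4116 and 215 in the control library. They numbered 1815 and 1155 in EC-iCOUP_OE replicate 1, and 608 and 211 in replicate 2. Over all cells EC-iCOUP_OE replicate 2 is the shallowest library, but in CapEC, arterial EC and CRP the control library is. Median UMIs per cell of the control library and EC-iCOUP_OE replicates 1 and 2 were 1481, 2214 and 2118 in CapEC. They were 1826, 2374 and 2376.5 in arterial EC and 1715, 3040.5 and 2280 in CRP.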
